A study of Mus musculus with 6 samples.

Results

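In mouse mammary tumour cells kept for months in H2O2, 93 genes differed from untreated cells in the line grown at the lower dose and lay near untreated cells in the line grown at the higher dose. Members were chosen by these values: a gene belonged to the set when its mean of log2(CPM + 0.5) in the line I80 lay at least 1 unit above or below that of untreated cells, while that of the line DI150 lay within 0.25 units of untreated cells. CPM scale a gene's reads to a fixed total of reads assigned to genes, and 1 unit on this scale is about a 2-fold change except at low CPM, where it stands for more. Of the 11428 genes that averaged 1 CPM or more, 2395 passed the limit in I80, and 93 of these (3.883%) also met the limit in DI150. The members were thus selected on the values of both treated lines against PBS, and the levels given here describe that choice and are no test of it. In I80, 26 members were higher and 67 lower than in untreated cells.

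MTflEcad is an epithelial line grown from a mammary tumour of the mouse strain MMTV-Neu, in which a Neu (ERBB2) oncogene is driven in the mammary gland. Over 7 months its cells received H2O2 daily at 80 µM, which made the line I80, or at 150 µM, which made the line DI150, beside untreated cells called PBS with 0 µM. Total RNA depleted of ribosomal RNA was sequenced from 2 libraries of each of the 3 groups, with 21017849 to 26608715 assigned reads, so that 1 read was worth 0.0376 to 0.0476 CPM. Each dose is 1 line, so dose and line cannot be told apart, and since the sources do not say whether duplicates were separate cultures, p-values measure only the spread between these libraries.

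H2O2 is a signalling molecule at low levels, where it oxidises cysteines of phosphatases, kinases and sensor proteins, and a toxin at high levels, where it damages lipids, proteins and DNA. Cells that survive long exposure are known to raise peroxide-removing enzymes, often through the transcription factor NRF2, and to change adhesion, metabolism and signalling. In RNA of whole cultures, fewer cells of a type and less RNA per cell cannot be told apart.

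**Figure D1:**
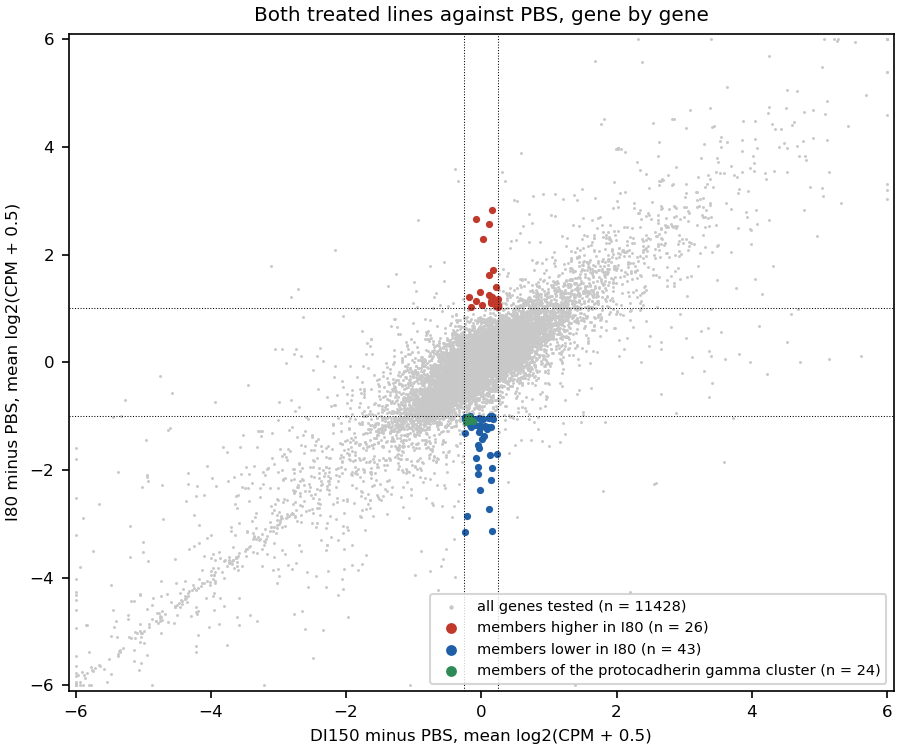
Difference of each gene's mean log2(CPM + 0.5) from PBS, in I80 on the vertical axis and in DI150 on the horizontal axis, for 11428 genes in grey, with values beyond 6 units drawn at the edge. Dotted lines mark the limits of 1 and 0.25 units, and the 26 higher (red), 43 lower (blue) and 24 protocadherin gamma members (green) fill the narrow band that the limits leave.

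The set is smaller than its row count. The 67 lower members include 24 genes of the protocadherin gamma cluster whose counts come almost entirely from the same reads (described with their values further on), so the 93 members stand for 70 loci, 26 higher and 44 lower. The median difference of I80 from PBS was 1.14 for the higher members and -1.21 for the 43 lower members outside that cluster, and differences ran from -3.15 to 2.83. Most were modest, since 11 members were at least 4-fold apart on this scale and 82 lay between 2-fold and 4-fold. The limit on DI150 left a lean of its own, with 21 of 26 higher members above PBS in DI150 too (median 0.16), and a median of -0.02 over the 43 lower members. By the mirror rule, 101 genes moved in DI150 while I80 stayed within 0.25 units of PBS, 42 of them higher and 59 lower.

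Since the rule used these contrasts, calls in them carry no information about the members. In a limma fit over all 11428 genes, all 93 were called between I80 and PBS (Benjamini-Hochberg adjusted p under 0.05), as were 66.4% of all genes tested (32.3% higher, 34.2% lower). Between I80 and DI150 the fit called 92 members, all but Muc15, and 43.8% of all genes (21.9% in each direction). In all 93 members both I80 libraries lay outside the range of the 4 PBS and DI150 libraries, as they did for 40.1% of all genes (20.5% above and 19.6% below). Between DI150 and PBS it called 68.7% of all genes (32.7% higher, 36.1% lower) and 4 members, namely Itga6 and Cavin2, higher, and Arsb and Clstn1, lower. A missing call does not make DI150 equal to PBS. The 95% interval of DI150 minus PBS lay within 1 unit of 0 for 92 members and within 0.5 units for 60, reaching 0.262 units to either side of the estimate at the median.

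Among the higher members, 4 were nearly silent in both other groups. They fall below the mean of 5 CPM asked of the named genes and were singled out after their values were seen. Fry, a scaffold of NDR kinases at the mitotic spindle, had 2 and 2 reads in PBS cells, 97 and 84 in I80 cells and 3 and 4 in DI150 cells. Emid1, a secreted protein of the extracellular matrix, had 4 and 3 reads in PBS cells, 83 and 94 in I80 cells and 2 and 3 in DI150 cells. Neither gene passed 4 reads in any library outside I80. Timd2, a receptor of the TIM family that binds H-ferritin in mice, had 2 and 5 reads in PBS cells, 76 and 88 in I80 cells and 4 and 5 in DI150 cells. Egfl7, a secreted protein best known from endothelium, had 4 and 6 reads in PBS cells, 63 and 83 in I80 cells and 4 and 6 in DI150 cells. In all 4 the I80 libraries held at least 63 reads and no other library more than 6. These genes reached the filter of 1 CPM only through their I80 libraries. At so few reads, the 0.5 added to the CPM shrinks differences between PBS and DI150. Fry had a mean of 0.078 CPM in PBS and 0.148 in DI150, yet differed by only 0.164 units. Meeting the limit on DI150 thus says little about whether PBS and DI150 were alike in these 4 genes. Endothelial markers stayed low beside Egfl7, with a summed level over 7 markers of 0.1503 and 0.445 CPM in PBS cells, 0.663 and 0.824 in I80 cells and 0.523 and 0.534 in DI150 cells, and Kdr, Tie1 and Emcn at 0 in every library.

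Start-site windows of 250 bases before to 50 after the annotated start were read from RefSeq (GRCm38.p6) for 21 of the 26 higher members and 36 of the 43 lower members outside the protocadherin cluster. They were searched on both strands for TGACNNNGC, the core of the antioxidant response element that NRF2 binds, and for TGANTCA, the AP-1 site, and a stretch can match both at once. The antioxidant core stood in a window of 6 higher members (28.6%) and 3 lower members (8.33%), and of 17.1% of all genes tested with a window. The AP-1 letters stood in 0 higher members and 4 lower members (11.1%), and in 6.1% of all genes. Of the other motifs searched, GGAATG, which TEAD factors bind, stood in 7 higher (33.3%) and 8 lower members (22.2%) and in 14.4% of all genes. The interferon-stimulated response element stood in 0 higher and 4 lower members (11.1%) and in 3.4% of all genes, and the E-box CACGTG in 2 higher and 5 lower members (13.9%) and in 12% of all genes. The TATA box letters TATAAA stood in 2 higher members (9.52%), 4 lower members (11.1%) and 8.04% of all genes. A gene counted when any of its windows matched. There were 32 windows for the 21 higher members, 52 for the 36 lower members and 11681 for 9137 of all genes tested. Members thus had more windows per gene, which raises their shares beside those of all genes. A match describes letters and is not a binding site. The windows of Emid1 and Egfl7 are printed because these are the most strongly higher members that match the antioxidant core or the AP-1 letters. Capitals mark the antioxidant core on either strand, and matches to the other motifs are not marked.

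Emid1, chr11:5150025-5150324, minus strand: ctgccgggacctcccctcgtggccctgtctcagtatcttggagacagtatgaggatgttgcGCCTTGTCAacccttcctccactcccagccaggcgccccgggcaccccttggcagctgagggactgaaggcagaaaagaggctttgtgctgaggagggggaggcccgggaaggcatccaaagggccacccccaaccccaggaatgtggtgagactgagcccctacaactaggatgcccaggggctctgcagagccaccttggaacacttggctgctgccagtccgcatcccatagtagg

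Egfl7, chr2:26580833-26581132, plus strand: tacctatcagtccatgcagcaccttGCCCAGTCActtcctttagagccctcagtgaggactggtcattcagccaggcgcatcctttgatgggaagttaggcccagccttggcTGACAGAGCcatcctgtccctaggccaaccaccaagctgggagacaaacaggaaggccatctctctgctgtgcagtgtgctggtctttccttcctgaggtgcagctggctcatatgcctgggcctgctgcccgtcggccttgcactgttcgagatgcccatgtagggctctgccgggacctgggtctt

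Emid1 has 2 windows and Egfl7 has 3, for separate annotated starts, and each is shown by the window that holds the antioxidant core. In Egfl7 this is the outermost start, and in Emid1 it is a start inside the gene. Which start these cells use was not tested.

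Cell-surface and matrix genes stand on both sides of the set, and those higher in I80 come first. Itga6, the integrin alpha 6 chain that binds laminin and marks basal mammary cells, had 354 and 362 CPM in PBS cells, 810.2 and 810.2 in I80 cells and 421 and 429 in DI150 cells. Its DI150 libraries lay above both PBS libraries, and its difference there, 0.2479, was among the closest to the limit. Lrp8, a receptor for reelin and for selenoprotein P, the main carrier of selenium, had 94.5 and 82.3 CPM in PBS cells, 183 and 186 in I80 cells and 83.2 and 94.8 in DI150 cells, with PBS and DI150 overlapping. Sulf2 trims 6-O-sulfates from heparan sulfate outside the cell. It had 97.5 and 132 CPM in PBS cells, 259.8 and 241 in I80 cells and 127 and 123 in DI150 cells. Cavin2, a coat protein of caveolae, had 112 and 125 CPM in PBS cells, 259.6 and 231 in I80 cells and 134 and 147 in DI150 cells. The membrane mucin Muc15 had the PBS libraries that lay farthest apart. Its PBS libraries read 5.98 and 26.6 CPM, against 43.0 and 43.2 in I80 and 12.6 and 16.6 in DI150, so the PBS libraries were 4.45-fold apart and DI150 lay between them. Taken against PBS replicate 1 alone, DI150 would be 1.21 units higher, and against PBS replicate 2 alone, I80 would be 0.69 units higher, short of the limit of 1.

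Enzymes and transporters likewise stand on both sides, and the higher ones include Acsl4 and Mtap. Acsl4 loads arachidonic acid onto coenzyme A and so feeds the easily oxidised phospholipids of ferroptosis. It had 236 and 302 CPM in PBS cells, 588 and 593 in I80 cells and 236 and 269.6 in DI150 cells, a 2.19-fold higher mean in I80 than in PBS. Mtap, which salvages methionine and adenine from methylthioadenosine, had 476 and 447 CPM in PBS cells, 959 and 914 in I80 cells and 416 and 417 in DI150 cells. Its DI150 libraries lay just under both PBS libraries. Slc6a9, the glycine transporter GlyT1, had 110.4 and 130.4 CPM in PBS cells, 270.2 and 244 in I80 cells and 168 and 119.5 in DI150 cells. Its DI150 libraries differed more than its PBS libraries did, and 27.8% of its exon bases overlap Ccdc24 on the opposite strand. Sfxn5, a mitochondrial carrier of the sideroflexin family, had 9.21 and 10.1 CPM in PBS cells, 23.1 and 26.0 in I80 cells and 9.18 and 9.85 in DI150 cells. The mitochondrial protein Echdc2 and Adal, which removes the methyl-amino group of N6-methyl-AMP, were 2.06-fold and 2.11-fold higher in I80 than in PBS. Sdsl, a serine dehydratase-like enzyme, had 0.225 and 0.728 CPM in PBS cells, 2.34 and 2.43 in I80 cells and 0.476 and 0.572 in DI150 cells. Its PBS libraries were 3.23-fold apart. Like the 4 nearly silent genes, Sdsl reached the filter of 1 CPM only through I80, with means of 0.477 CPM in PBS and 0.524 in DI150. Meeting the limit on DI150 thus says little for this gene too.

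Higher members also included regulators in the nucleus and of membrane traffic. Mllt3 (AF9), which reads acylated histones for transcription elongation, had 35.4 and 42.7 CPM in PBS cells, 105 and 102 in I80 cells and 44.2 and 46.7 in DI150 cells. Dennd4c, an exchange factor for Rab10 in vesicle transport, had 57.95 and 60.2 CPM in PBS cells, 142 and 141 in I80 cells and 61.99 and 65.9 in DI150 cells. Tmem59, a membrane protein of the Golgi and endosomes, had 107 and 138 CPM in PBS cells, 288 and 277 in I80 cells and 139.8 and 132 in DI150 cells. In each of these 3 genes every I80 library was more than 2-fold above every PBS library. Wdr45, which acts in autophagosome formation, the splicing regulator Rbmx and Bclaf3 are all X-linked and were 2.12-fold, 2.15-fold and 2.21-fold higher in I80 than in PBS. Bclaf3 had 10.5 and 10.1 CPM in PBS cells, 22.7 and 22.9 in I80 cells and 11.7 and 11.5 in DI150 cells. Of the exon bases of Wdr45, 24.7% overlap Gm45208 on the same strand, and of those of Tmem59, 11.3% overlap Tceanc2 on the opposite strand, so their counts are uncertain. Fam13a, Marchf3, 2500004C02Rik and C330007P06Rik complete the higher members, with I80 to PBS ratios of 2.87, 2.54, 2.78 and 2.09. The PBS libraries of Fam13a were 2.03-fold apart. With means of 1.03 CPM in PBS and 0.815 in DI150, Fam13a too reached the filter of 1 CPM only through I80.

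**Figure D2:**
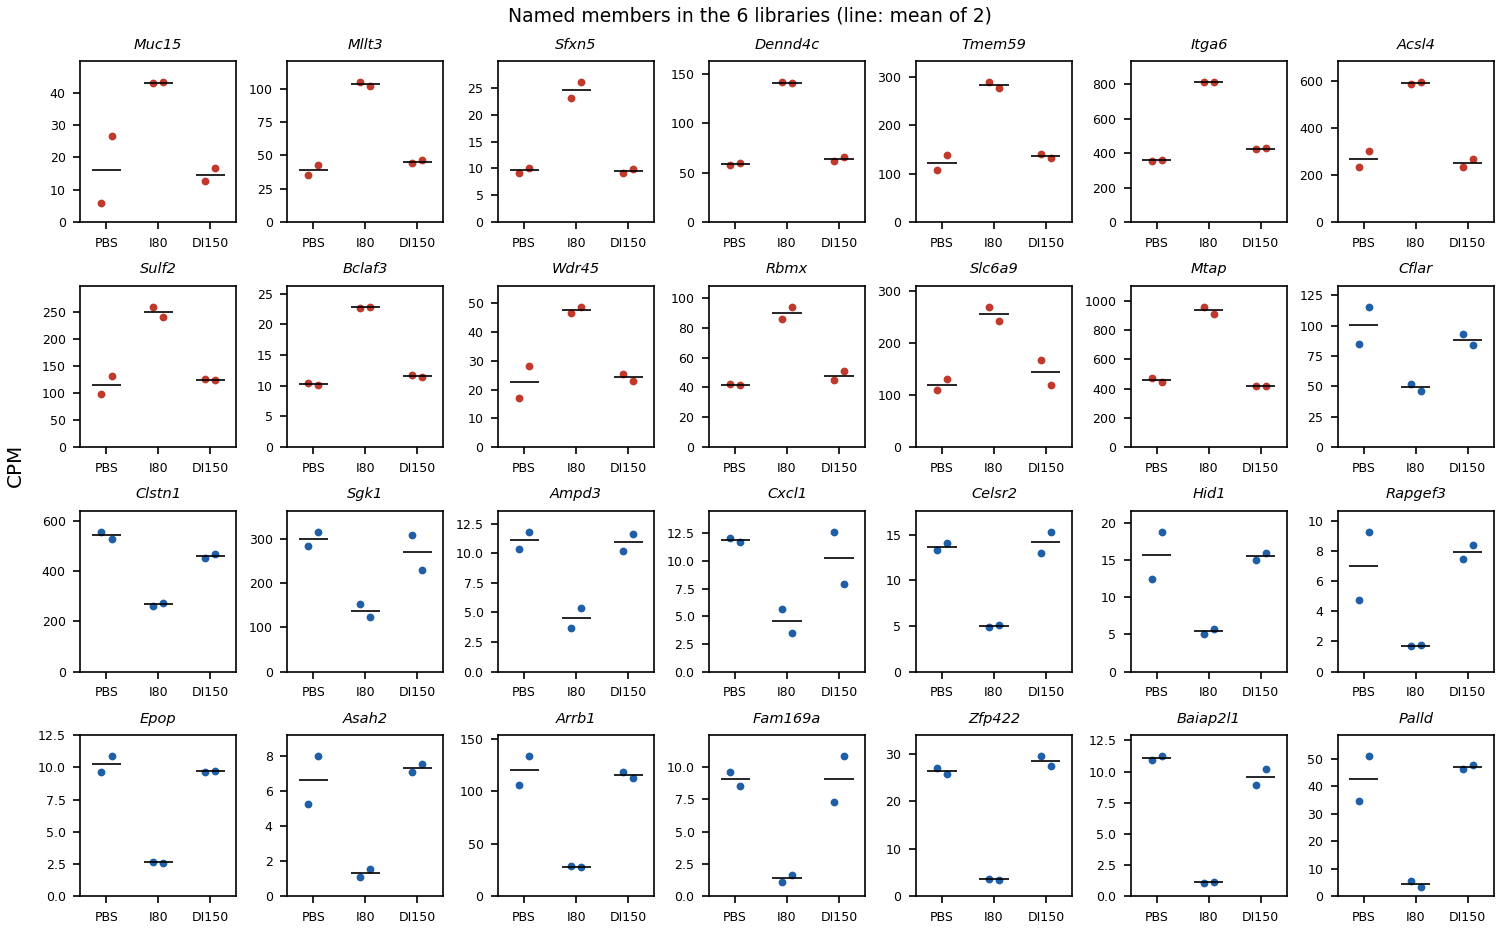
CPM in each library (points, 2 per group) and the mean of 2 (line) for 28 named members, ordered by their difference of I80 from PBS, with red for higher and blue for lower members and each axis starting at 0. PBS and DI150 stand level in most panels and I80 apart from both, and the PBS points of Muc15 and Rapgef3 lie far from each other.

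Genes of the cytoskeleton and of cell shape included Palld and Baiap2l1, among the most strongly lower members. Palld (gene 72333, chromosome 8 at 61511431 to 61902707) encodes palladin, which bundles actin in stress fibres and adhesions. It had 34.6 and 51.0 CPM in PBS cells, 5.38 and 3.46 in I80 cells and 46.3 and 47.7 in DI150 cells, 9.68-fold lower in I80 than in PBS. Baiap2l1, which bends membranes and organises actin through its I-BAR domain, had 10.9 and 11.2 CPM in PBS cells, 1.09 and 1.11 in I80 cells and 8.90 and 10.2 in DI150 cells, 10.1-fold lower. In both genes the I80 libraries lay far under all 4 others, and DI150 lay within or next to the PBS range. Celsr2, a large cadherin of planar cell polarity, had 13.3 and 14.03 CPM in PBS cells, 4.84 and 5.11 in I80 cells and 12.99 and 15.3 in DI150 cells. Syne3, a nesprin that ties the nuclear envelope to intermediate filaments, and the junction-associated Tjap1 were 2.15-fold and 2.03-fold lower. Clstn1, a cadherin-related cargo adaptor of kinesin, had 557 and 528 CPM in PBS cells, 262 and 274 in I80 cells and 452 and 468 in DI150 cells, and its DI150 libraries lay below both PBS libraries.

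Several signalling genes were lower in I80. Arrb1 (gene 109689, chromosome 7 at 99535147 to 99606772), beta-arrestin 1, which switches off G-protein-coupled receptors and scaffolds kinases, had 106.5 and 134 CPM in PBS cells, 28.3 and 27.7 in I80 cells and 119 and 113 in DI150 cells. Its I80 mean was 4.29-fold below PBS, while both DI150 libraries lay between the PBS libraries. Rapgef3 (EPAC1), which couples cyclic AMP to Rap GTPases, had 4.77 and 9.30 CPM in PBS cells, 1.68 and 1.73 in I80 cells and 7.47 and 8.40 in DI150 cells, with PBS libraries 1.95-fold apart. Rasa4, a Ras GTPase-activating protein recruited by calcium, read 2.48 and 4.65 CPM in PBS cells, 0.429 and 0.289 in I80 cells and 4.38 and 3.32 in DI150 cells. Sgk1, a kinase induced by glucocorticoids that controls ion transport and survival, had 283 and 316 CPM in PBS cells, 152 and 124 in I80 cells and 309 and 229.6 in DI150 cells. Of its DI150 libraries, 1 lay within the PBS range and the other below it. Sh3rf1 (POSH), a scaffold of JNK signalling, had 22.4 and 22.0 CPM in PBS cells, 9.21 and 9.48 in I80 cells and 24.9 and 22.7 in DI150 cells. Itpkb, which phosphorylates the calcium messenger IP3, and Stradb, a pseudokinase partner of LKB1, were 2.12-fold and 2.11-fold lower, and Kcnab2, a potassium channel beta subunit, was 6.86-fold lower.

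Among stress, death and inflammation genes, 4 members were lower in I80. Gadd45b, which links stress to p38 and JNK signalling, had 36.9 and 32.4 CPM in PBS cells, 14.4 and 15.3 in I80 cells and 32.4 and 29.8 in DI150 cells. Cflar, the c-FLIP inhibitor of caspase-8, had 84.7 and 115 CPM in PBS cells, 52.1 and 46.2 in I80 cells and 93.1 and 83.8 in DI150 cells. It lay closest to the limit of 1 unit, at -1.0027. Cxcl1, a chemokine that draws neutrophils, had 12.1 and 11.7 CPM in PBS cells, 5.62 and 3.50 in I80 cells and 12.7 and 7.90 in DI150 cells, where the libraries stood farther apart than in PBS. Cd1d1, whose count is uncertain because of its near copy Cd1d2 and which presents lipids to natural killer T cells, had 1.84 and 2.18 CPM in PBS cells, 0.273 and 0.247 in I80 cells and 2.24 and 2.25 in DI150 cells. A summed level of 11 immune markers was 9.81 and 17.2 CPM in PBS cells, 2.07 and 2.19 in I80 cells and 1.90 and 1.98 in DI150 cells, low in both treated lines, whereas Cd1d1 and Cxcl1 stayed near PBS in DI150. The part of immune cells in the PBS level of these 2 genes was not tested.

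Transcription regulators, lipid enzymes and lysosomal genes followed. Zfp422, a zinc finger protein, had 26.9 and 25.6 CPM in PBS cells, 3.71 and 3.38 in I80 cells and 29.5 and 27.5 in DI150 cells, 7.42-fold lower in I80 than in PBS. Epop, which joins Elongin BC to Polycomb repressive complex 2, had 9.62 and 10.9 CPM in PBS cells, 2.69 and 2.60 in I80 cells and 9.66 and 9.73 in DI150 cells. In both genes the libraries of each group lay close together, and I80 lay far under the other 4 libraries. Snai3, a Snail-family repressor, and Mdfi, an inhibitor of MyoD-family factors, were 2.77-fold and 2.59-fold lower. Asah2, the neutral ceramidase, had 5.26 and 7.97 CPM in PBS cells, 1.09 and 1.53 in I80 cells and 7.04 and 7.52 in DI150 cells. The lysosomal genes Arsb (arylsulfatase B) and Cln3 were 2.08-fold and 2.34-fold lower, and Ampd3, an AMP deaminase, was 2.45-fold lower. Fam169a had 9.62 and 8.49 CPM in PBS cells, 1.09 and 1.65 in I80 cells and 7.28 and 10.8 in DI150 cells. Of exon bases, 26.1% in Fam169a overlap Nsa2, 32.3% in Arsb overlap Gm26527 and 84.2% in Phospho1 overlap Abi3, each on the opposite strand, and 89.6% in Phospho1 overlap Zfp652 on the same strand, so these 3 counts are uncertain. Any exon overlap was found for 24 of the 66 members outside the protocadherin cluster that the annotation lists by symbol (Lratd1, Marchf3 and 2610524H06Rik could not be checked), and 10% or more of the exon bases for 6, all of them named here. 2610524H06Rik had no read in I80 against 87 and 117 in PBS and 66 and 89 in DI150, which is at least 33.2-fold lower than in PBS with a floor of 3 reads per library.

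Hid1, which acts in the sorting of secretory granules, had 12.4 and 18.8 CPM in PBS cells, 5.03 and 5.77 in I80 cells and 14.99 and 15.95 in DI150 cells. The other lower members were the chloride channel Clcn2, Anxa11, an annexin, Unc80, a subunit of the sodium leak channel, the synaptic vesicle protein Syngr1, and Rsrc1, Klrg2, Phospho1, 6720489N17Rik, Sowahb, Trmt9b, Lratd1, AI661453, Zfp558 and Gm3716. Their mean levels were between 2.02-fold (Rsrc1) and 6.97-fold (Zfp558) lower in I80 than in PBS.

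Palld and Fam169a are the most strongly lower members with a match to the antioxidant core or the AP-1 letters in any window. Palld has 3 windows and Fam169a has 2, and the matching ones shown are at starts inside the genes, not at the outermost start. Capitals mark the AP-1 letters in Palld and the antioxidant core in Fam169a, and matches to the other motifs are not marked.

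Palld, chr8:61591090-61591389, minus strand: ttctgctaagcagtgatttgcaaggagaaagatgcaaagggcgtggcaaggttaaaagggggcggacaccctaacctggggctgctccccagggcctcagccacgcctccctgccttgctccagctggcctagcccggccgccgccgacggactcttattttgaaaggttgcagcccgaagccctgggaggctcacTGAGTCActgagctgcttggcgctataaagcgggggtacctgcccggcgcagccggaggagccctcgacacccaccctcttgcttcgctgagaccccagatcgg

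Fam169a, chr13:97071393-97071692, plus strand: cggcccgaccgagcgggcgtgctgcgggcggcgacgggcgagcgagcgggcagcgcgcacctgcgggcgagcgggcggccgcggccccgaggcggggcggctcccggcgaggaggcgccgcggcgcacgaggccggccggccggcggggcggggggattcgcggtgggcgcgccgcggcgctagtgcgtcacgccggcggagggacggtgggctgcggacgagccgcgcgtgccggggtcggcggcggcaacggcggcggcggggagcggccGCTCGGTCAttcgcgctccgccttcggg

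The protocadherin gamma genes encode cell-adhesion molecules best known from neurons, each with its own first exon spliced to shared last exons. All 24 members of the cluster (21 with a Pcdhg symbol and Gm38666, Gm38667 and Gm37013, on chromosome 18 between 36952648 and 37841873) had nearly the same reads. In PBS replicate 1 their reads ran from 1096 to 1108, with 10 genes at 1096, and in I80 replicate 1 from 469 to 502. The lowest count was 1096 and 922 in PBS cells, 469 and 434 in I80 cells and 707 and 888 in DI150 cells. These are 41.2 and 37.3 CPM in PBS cells, 18.3 and 17.9 in I80 cells and 33.6 and 33.9 in DI150 cells, a 2.17-fold lower mean in I80 than in PBS. In the GENCODE M21 annotation the 22 gamma genes share 3 exons of 59, 89 and 1968 bases, together 2116 bases. The reads beyond the lowest count numbered 64 at most in any gene and library among the members, so which first exon was used is nearly invisible in these counts. Pcdhgc3, outside the set by its DI150 difference of -0.27, had 2248 and 1834 reads in PBS cells, 965 and 809 in I80 cells and 1386 and 1719 in DI150 cells, which leaves 1152 reads in PBS replicate 1 beyond that lowest count. The neighbouring alpha and beta clusters were not lower in I80 than in PBS. The summed level of 14 alpha genes was 0 and 0.121 CPM in PBS cells, 3.40 and 3.50 in I80 cells and 0.666 and 0 in DI150 cells. The 22 beta genes summed to 6.69 and 8.33 CPM in PBS cells, 13.6 and 10.8 in I80 cells and 21.5 and 17.9 in DI150 cells.

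**Figure D3:**
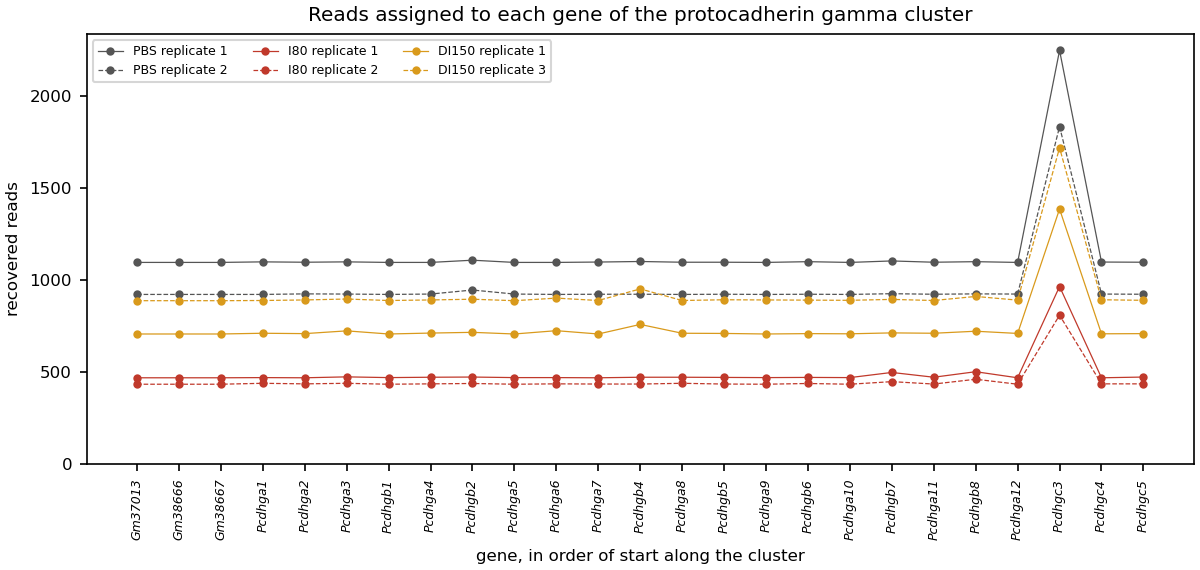
Reads recovered from the CPM for each of 25 genes of the protocadherin gamma cluster (horizontal axis, in order along the cluster) in the 6 libraries (lines). The lines are flat across the 24 members, and Pcdhgc3 alone stands clearly above the rest in every library.

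The members were unevenly spread over the genome, by a grouping made after they were known. Of the 26 higher members, 6 lie on chromosome 2, 7 on chromosome 4 and 5 on the X chromosome, together 18 (69.2%), against 17.1% of all genes tested and 20.6% of the 1052 genes at least 2-fold higher in I80. Of the 43 lower members outside the protocadherin cluster, 2 (4.65%) lie there. The X chromosome as a whole differed between the treated lines, with a median over its 329 tested genes of 0.07 units in I80 minus PBS and -0.46 in DI150 minus PBS. All 5 X-linked members were higher in I80, and all 20 X-linked genes of the mirror rule were lower in DI150. On chromosome 2 the medians were 0.43 in I80 and 0.19 in DI150, and on chromosome 4 they were -0.20 and -0.35.

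**Figure D4:**
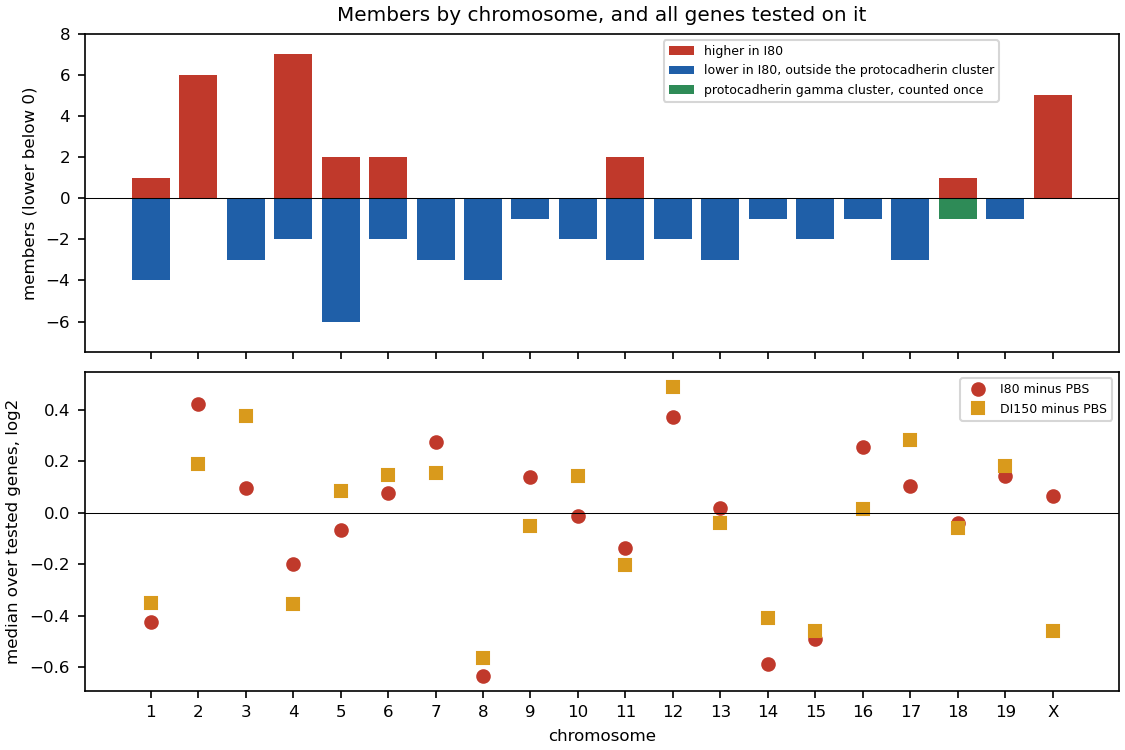
Top, number of members on each chromosome, higher in I80 above 0 and lower below it, with the protocadherin cluster counted once. Bottom, median difference from PBS in log2 units over all genes tested on the chromosome, for I80 (circles) and DI150 (squares); chromosomes 2, 4 and X hold 18 of the 26 higher members, and on X the medians of the lines lie farthest apart.

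Genes beside the higher members on chromosomes 4 and X, which the rule did not choose, lay mostly higher in I80 than in DI150. Beside the lower members the lean was weaker and more often toward lower values in I80. The neighbour medians described next had a median of -0.109 units over the 43 lower members. It was 0.382 over the 26 higher members and -0.0193 over all genes tested. Over tested non-member genes within 1 Mb, the median difference of I80 minus DI150 was at least 0.5 units beside 11 of 26 higher members (42.3%), beside 1 of 43 lower members (2.33%), and beside 4.7% of all genes tested. It was -0.5 units or less beside 0 of 26 higher members, 4 of 43 lower members (9.3%) and 2.97% of all genes. All 11 higher members with a neighbour median of at least 0.5 units lie on chromosome 4 or X. Over all genes tested on X, the median of I80 minus DI150 was itself 0.59 units. Neighbouring genes share such windows, so these shares are descriptions.

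The plainest case is a stretch of chromosome 4 from 106500000 to 109000000 that holds Tmem59, Lrp8 and Echdc2. Of its 25 other tested genes, limma called 24 higher in I80 than in DI150 and 0 lower, against 21.9% of all genes in the higher direction. Their median was 0.50 units in I80 minus PBS and -0.34 in DI150 minus PBS, so the 3 members lay near PBS in DI150 on a stretch whose other genes lay mostly below it. A second stretch of chromosome 4, from 86000000 to 90500000, holds Dennd4c, Mllt3 and Mtap, and of 10 other genes 8 were called higher in I80 than in DI150 and 1 lower, the ceramidase Acer2. On chromosome 17 from 46000000 to 48000000, around Tjap1, AI661453 and Mdfi, the direction was opposite, with 36 of 40 other genes called lower in I80 than in DI150 and 1 higher, and medians of -0.20 in I80 and 0.54 in DI150. Around Cflar and Stradb on chromosome 1, from 58500000 to 59300000, 7 of 8 other genes were called lower in I80 than in DI150. The limits of these stretches were drawn after the values were seen, and within 1 Mb of Cflar the counts were 13 lower and 1 higher of 20. With 1 library left out at a time, these counts were 22 to 25 of 25 higher on the first stretch, 7 to 8 higher on the second, 30 to 37 lower on chromosome 17 and 6 to 7 lower on chromosome 1.

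**Figure D5:**
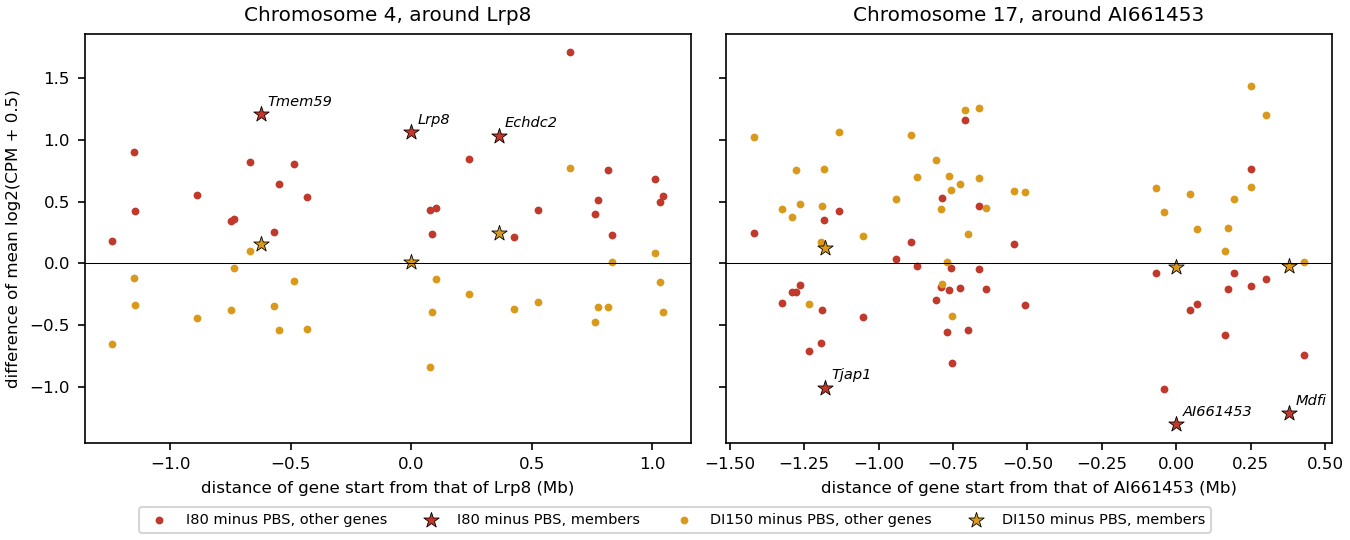
Difference from PBS in log2 units for I80 (red) and DI150 (yellow), for members (stars) and other tested genes (points), by distance in Mb from the start of Lrp8 on chromosome 4 and of AI661453 on chromosome 17. Around Lrp8 the red points lie above the yellow ones, and around AI661453 mostly below them.

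Palld and Sh3rf1 did not follow their surroundings. They start 287 kb apart on chromosome 8, and both were lower in I80 and near PBS in DI150. Of the 5 other tested genes from 60500000 to 62500000, limma called 2 higher in I80 than in DI150 and 0 lower, and their medians were -0.71 in I80 and -0.94 in DI150. Cbr4, which lies between the 2 members, had 15.9 CPM in PBS, 8.19 in I80 and 8.58 in DI150 by group means. The stretch was thus low in both treated lines, and these members lay near PBS in DI150. Around Cxcl1 and Sowahb on chromosome 5, from 90000000 to 94000000, 11 of 26 other genes were called lower in I80 than in DI150 and 0 higher. Fewer of them were called lower when an I80 or a DI150 library was left out, and more when a PBS library was. The median of I80 minus DI150 over these other genes was -0.27 units. With 1 library left out at a time, it ran from -0.32 units (without DI150 replicate 1) to -0.24 units (without DI150 replicate 3).

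Relatives of the members are given as a description. In 35 families picked after the members were known, 87 relatives could be tested and 0 met the rule, which 0.814% of all tested genes met, so at this number 0 is near the background. In I80 limma called 28 of them higher and 41 lower, against 32.3% and 34.2% of all genes. Itga1, a relative of Itga6, met both limits of the rule but averaged under 1 CPM and was not tested. Sh3rf2, the paralog of Sh3rf1, had 10.97 and 13.3 CPM in PBS cells, 0.156 and 0.453 in I80 cells and 8.37 and 9.85 in DI150 cells, a difference of -3.99 units in I80 (limma adjusted p = 2.73e-06) and -0.39 in DI150 (adjusted p = 0.137). Beside Itga6, the integrin chains Itga3 and Itgb4 were lower in both treated lines, Itgb4 at 730.0 ± 95.3 CPM in PBS, 439 ± 2.96 in I80 and 328 ± 11.97 in DI150 (SD, n = 2 each; limma adjusted p = 0.000291 and 2.37e-05 against PBS). Beside Acsl4, Acsl3 was lower in both (limma adjusted p = 2.26e-05 in I80 and 1.45e-05 in DI150), and Acsl1 was called higher in DI150 than in PBS (adjusted p = 0.000124) and not in I80 (0.703). The fold of Celsr1, a paralog of Celsr2, was far larger, with 241 ± 16.7 CPM in PBS, 0.282 ± 0.0676 in I80 and 0.110 ± 0.0470 in DI150. Casp8, the caspase that Cflar inhibits, had 93.7 ± 1.82 CPM in PBS, 45.4 ± 1.62 in I80 and 64.0 ± 2.16 in DI150, and fell in both lines (limma adjusted p = 1.03e-05 in I80 and 0.000296 in DI150). Of the genes that build caveolae with Cavin2, Cavin1 and Cav1 fell in both lines, and Cav2 was called in neither (limma adjusted p = 0.552 in I80 and 0.255 in DI150).

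Across 34 lists of pathways and cell-type markers, 3 of the 796 tested list genes (0.377%) were members, against 0.814% of all genes tested, or 0.613% with the protocadherin cluster counted once. Itga6 is on the mammary basal and integrin lists, Cxcl1 on the NF-kB list and Cflar on the apoptosis list. The calls in these lists stand beside those of all genes tested. Against PBS, limma called 32.3% of all genes higher and 34.2% lower in I80, and 32.7% higher and 36.1% lower in DI150. The 21 tested NF-kB genes split into 4 higher and 13 lower in I80 and 4 higher and 9 lower in DI150, with median differences of -0.63 and 0.04. Of 28 apoptosis genes, 5 were higher and 15 lower in I80, and 8 higher and 13 lower in DI150. Of 13 basal genes, 2 were higher and 9 lower in I80, and 2 higher and 10 lower in DI150, so Itga6 stood against most of its list. None of the 38 tested NRF2 targets was a member, and 30 of them were called higher in I80 and 32 in DI150. The 8 epithelial markers were present in all libraries, at a summed 6523 and 6566 CPM in PBS cells, 3132 and 3112 in I80 cells and 3477 and 3156 in DI150 cells, and 9 fibroblast markers summed to 21.8 to 24.4 CPM, with Pdgfrb and Thy1 at 0. Of the 3 fibroblast markers tested, Col1a1 and Pdgfra were called higher and Col1a2 lower in each treated line. The 5 adipocyte markers summed to at most 0.162 CPM in PBS and I80 libraries and to 11.8 and 13.6 CPM in DI150, with Adipoq and Cfd at 0. Only 1 of the 5 averaged 1 CPM or more, with a difference from PBS of 0 units in I80 and 4.72 in DI150. The DI150 sum thus rests almost wholly on 1 gene.

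The set has no natural edge. Just inside the limit of 1 unit lay Cflar (-1.0027), Rsrc1 (-1.0042) and Tjap1 (-1.0062), and just outside it Gm14326 (0.9834), Gm8909 (-0.9816) and Gm14325 (0.9803). Just inside the DI150 limit lay Echdc2 (0.2480), Itga6 (0.2479) and Arsb (-0.2465), and just outside it Ciita (-0.2514), Cpe (-0.2524) and Klf8 (0.2629). Members were more often low than other genes, with 22 of 93 under a mean of 5 CPM. That share was 30.8% among the higher and 32.6% among the lower members outside the protocadherin cluster, against 11.8% of all genes. Membership leaned on the PBS libraries in particular. Without PBS replicate 2, the rule kept 32 of the 93, and limma called 40 of the 93 between DI150 and PBS. Without PBS replicate 1 the rule kept 66. Of the 24 protocadherin members, which count the same reads, the rule kept 1 without PBS replicate 2 and 22 without PBS replicate 1. In all 6 leave-outs together it kept 15, namely Sfxn5, Dennd4c and Bclaf3 among the higher members, and 12 lower members, 1 of them a protocadherin gamma gene and the others Arrb1, Zfp422, Epop, Celsr2, Cd1d1, AI661453, Mdfi, Sh3rf1, Gadd45b, Snai3 and Anxa11. The sign of I80 minus PBS held for all 93 in each of these leave-outs. It had to hold, since both I80 libraries of every member lay outside the range of the PBS and DI150 libraries.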

How the data were processed

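The authors deposited 1 table of CPM for 24454 gene numbers and 6 libraries. The submitters' processing notes name STAR and the build mm10, without versions. Counter, annotation and strand setting were not given in the sources used here. For DI150, the second column is numbered 3, a number that the sample labels lack, and is called DI150 replicate 3. Divided by the worth of 1 read, 100.0% of the 146724 values were whole within 1e-06 reads. The floor covers counting error only, as PCR copies could not be recognised.

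The members and all lists, families and genome windows were chosen with earlier results of these data known. Genes named are the 12 largest differences each way at 5 CPM or more in the higher of PBS and I80, list genes, neighbours within 500 kb, and the 3 highest each way. The others named were chosen after their values were seen. The test was limma 3.58.1 (eBayes with trend, R 4.3.3) on log2(CPM + 0.5) over all 6 libraries and 11428 genes, two-sided, called at a Benjamini-Hochberg adjusted p of 0.05. edgeR 4.0.16 on the recovered reads called 7610 genes between I80 and PBS, where limma called 7591, and DESeq2 1.42.0 called 7341. Exon overlaps come from GENCODE M21 on GRCm38, symbols and start-site windows from RefSeq on GRCm38.p6 (93 of 93 members matched). The windows' strand was checked against transcript sequences.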

Additional observations from a re-analysis of the deposited data

How the results depend on the processing

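The rule gave 86 members with a pseudocount of 1, 98 with 0.1, 90 with TMM scaling, 91 with median-of-ratios scaling, and 71 at 5 CPM or more; with no filter all 93 remained among a larger set. A limit of 0.15 on DI150 left 38 (11 higher, 27 lower), a limit of 0.5 gave 191 (65 and 126), and a limit of 1.5 on I80 left 20 (6 and 14). Of the 24 protocadherin members, which count the same reads, 1 stayed at the limit of 0.15 and 0 at the limit of 1.5. Counting the protocadherin cluster as 1 locus, chosen after seeing the data, left 44 lower loci. Leaving out a library gave 62 to 98 members, 42 to 71 of them lower and 20 to 35 higher. The counts of all genes called between I80 and DI150 ran from 2488 to 6091 over those leave-outs, with 2524 without I80 replicate 1, 2488 without I80 replicate 2 (81 of the 93 members among them), 3000 without DI150 replicate 1 and 3206 without DI150 replicate 3. No difference of a named member changed sign in any alternative, and 12 such values moved by more than the replicate spread while 324 did not. Leaving out 1 library could neither change a sign nor move a value past this spread, and changing the CPM filter does not alter a value. The values from those alternatives were thus bound to count as unmoved and are no sign of stability.

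PBS and I80 share replicate numbers, but a correlation of 0.0228 between same-numbered deviations gives no sign of pairing, and limma on the 4 libraries called 7275 genes without and 7173 with the replicate block, all 93 members among them in both. Depth limits members near 0 reads, and the fit had 3 residual degrees of freedom from 6 libraries.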
